A study of Neurospora crassa with 2 samples.

Results

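Transcript levels of 3 enzyme genes for the breakdown of mannan and xyloglucan were compared between 2 strains of the filamentous fungus Neurospora crassa. The members were chosen by locus tag from the 9730 genes of the series' expression table. They are NCU08412, which encodes an endo-mannanase, NCU00890 (gh2-1), which encodes a β-mannosidase, and NCU05955, which encodes a xyloglucanase of glycoside hydrolase family GH74. All 3 had values in both libraries. The Δ3βG strain lacks 3 β-glucosidase genes (gh1-1, gh3-3 and gh3-4), and the Δ3βGΔncw-1 strain lacks these and also ncw-1, the gene of a cell wall protein that is not anchored there. Mycelia of both grew first for 20 h in MM and were then kept for 4 h in Vogel's salts with 1% cellobiose, the disaccharide of glucose that is released from cellulose. No strain with intact β-glucosidase genes and no other carbon source was included. The values thus compare strains with and without ncw-1, both lacking the 3 β-glucosidase genes, on cellobiose only. Other differences between the 2 libraries are given below. There was 1 library per strain. No difference therefore has a replicate check, no test between the strains was possible, and the intervals below cover counting error only.

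Mannans are plant hemicelluloses with a backbone of β-1,4-linked mannose, in glucomannans mixed with glucose. Endo-mannanases cut this backbone inside the chain, and β-mannosidases release mannose from the ends of the fragments. Xyloglucan has the β-1,4-glucan backbone of cellulose, but most of its glucose units carry xylose, some of it capped by galactose, and GH74 enzymes cut that backbone. In N. crassa the transcription activator CLR-2 is known to drive genes for the breakdown of mannan as well as cellulose.

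Values are RPKM, read numbers divided by the length of the gene model and by the depth of the library, which allows levels of different genes to be compared. Whole reads behind each value were recovered from the steps of the RPKM, which gave totals of 20510798 reads for Δ3βG and 20019350 reads for Δ3βGΔncw-1. The deleted ncw-1 (NCU05137) had 435 RPKM in Δ3βG and 2.62 RPKM in Δ3βGΔncw-1, which followed the labels, and gh1-1, gh3-3 and gh3-4 were between 0.342 and 3.41 RPKM in both libraries. Some features other than ncw-1 also set the libraries apart. Both strains are labelled a after the genotype, yet matA-1 and ccg-4, transcripts of the mat A mating type, were at 0 in Δ3βG and had 15.4 and 87.9 RPKM in Δ3βGΔncw-1. The hyphal marker hex-1 was high in both libraries, at 3247 and 2970 RPKM. Of 5 markers of conidia and aerial hyphae, 3 were at least 2-fold lower in Δ3βGΔncw-1, beside 11.1% of all genes that reached 10 RPKM, and none was at 0. The other two were con-6, with 284 and 157 RPKM, and con-10, which had 66.1 RPKM in Δ3βG and 90.0 RPKM in Δ3βGΔncw-1. Among the 3 lower markers, acon-3 had only 2.07 RPKM in Δ3βGΔncw-1, so the limit of 10 RPKM fixed its direction in advance. The summed level of the 5 markers was 60795 RPKM in Δ3βG and 2008 RPKM in Δ3βGΔncw-1, most of it from the hydrophobin gene eas. This gene alone took between 6.77% and 10.2% of the Δ3βG reads. With 1 library each, the parts of mating type, conidiation and ncw-1 in any difference below cannot be told apart, and neither can a change in RNA per cell be told from a change in the kinds of cell.

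All 3 genes had higher RPKM in Δ3βGΔncw-1, the endo-mannanase and the xyloglucanase by 34.5-fold and 37.8-fold and the β-mannosidase by 8.21-fold. The endo-mannanase gene NCU08412 had 29.99 RPKM in Δ3βG (740 reads, counting interval 27.9 to 32.2 RPKM) and 1035 RPKM in Δ3βGΔncw-1 (24932 reads, 1022 to 1048 RPKM). This was 34.5-fold higher, with an exact 95% counting interval from 32.1 to 37.2. Its rank by RPKM among the 9730 genes moved from 2950 in Δ3βG to 52 in Δ3βGΔncw-1, so a transcript of middling level in the first library was among the most abundant in the second.

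The xyloglucanase gene NCU05955 had 12.0 RPKM in Δ3βG (847 reads, 11.2 to 12.8 RPKM) and 454 RPKM in Δ3βGΔncw-1 (31284 reads, 449 to 459 RPKM). It was 37.8-fold higher (35.3 to 40.6), and its rank moved from 5280 to 132. The counting intervals of the 2 folds overlapped. Whether the folds of the endo-mannanase and xyloglucanase genes, whose enzymes act on different polymers, differ from each other was not tested. Their gene models are 1203 and 3441 bases long, which is why the xyloglucanase gene gave more reads at the lower RPKM.

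The β-mannosidase gene NCU00890 (gh2-1) had 4.55 RPKM in Δ3βG (281 reads, 4.04 to 5.12 RPKM) and 37.4 RPKM in Δ3βGΔncw-1 (2252 reads, 35.9 to 38.97 RPKM). It was 8.21-fold higher (7.25 to 9.33), a fold whose interval lay below those of the other two members. Its rank moved from 6847 to 2030. This value carries a limit that the others do not: 62.1% of its span in the reference gene table overlaps that of the adjacent gene NCU00891, which had 9.19 and 37.7 RPKM. No source used here says how reads in the shared stretch were assigned, so the 2 genes may not be separated. The spans of NCU08412 and NCU05955 overlap neither of their neighbours.

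**Figure D1:**
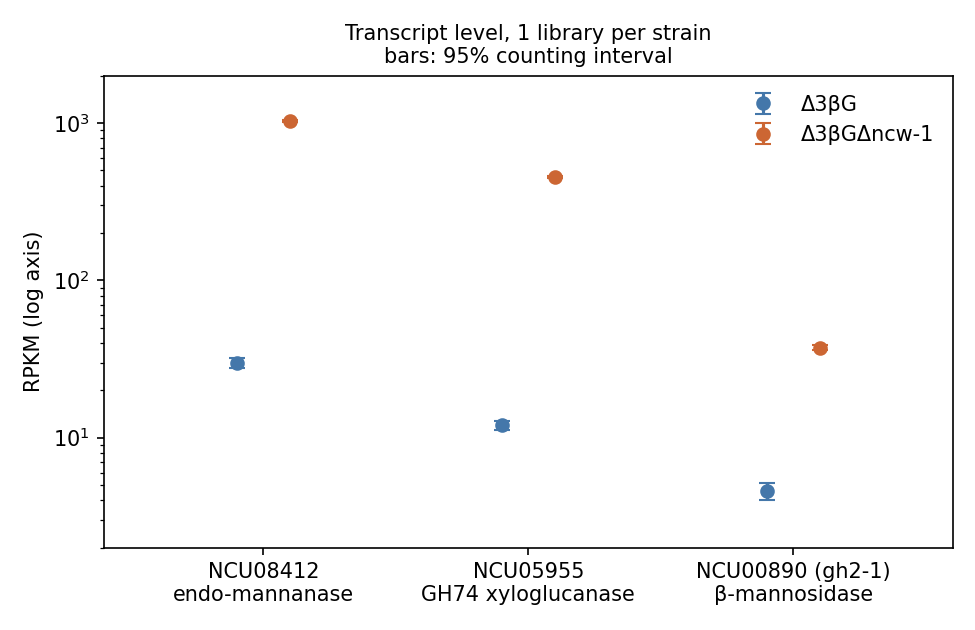
RPKM (log axis) of the 3 genes in the Δ3βG library (blue) and the Δ3βGΔncw-1 library (orange), 1 library per strain, with exact Poisson 95% counting intervals as bars. Every gene was higher in Δ3βGΔncw-1, from 29.99 to 1035 RPKM for NCU08412, 12.0 to 454 RPKM for NCU05955 and 4.55 to 37.4 RPKM for NCU00890.

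The order of the levels was the same in both libraries, with the endo-mannanase gene highest, the xyloglucanase gene second and the β-mannosidase gene lowest, and no neighbouring intervals overlapped within a library. The spacing differed. The RPKM of the endo-mannanase gene was 2.50 times that of the xyloglucanase gene in Δ3βG and 2.28 times in Δ3βGΔncw-1. Against the β-mannosidase gene it was 6.58 times in Δ3βG and 27.7 times in Δ3βGΔncw-1. The pair that handles mannan in sequence, the enzyme that cuts the chain and the one that releases mannose, was thus further apart in RPKM in Δ3βGΔncw-1. This rests on the values of NCU00890, which may not be separated from those of NCU00891. Together the 3 genes made up 0.00911% of all Δ3βG reads, and 0.292% of those of Δ3βGΔncw-1.

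These differences were set against all genes. Leaving out the deleted genes, 5988 had 10 RPKM or more in at least 1 library. Of these, 484 (8.08%) were higher in Δ3βGΔncw-1 by 2-fold or more, and 664 (11.1%) were lower by as much, on the scale of log2(RPKM + 1). The median log2 ratio was −0.32. With the ratios centred on that median gene the counts were 676 higher and 343 lower, so 66.3% of the calls were higher in place of 42.2%. The 3 members passed 2-fold upward under both scalings. For NCU00890, which was below 10 RPKM in Δ3βG, that limit fixed the direction in advance. A difference of at least 16-fold upward was seen for 59 genes (0.985%), among them NCU08412 and NCU05955. On the log2 scale their ratios were 5.06 and 5.13, at ranks 28 and 25 of the 5988 genes, and that of NCU00890 was 2.79, at rank 129.

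Genes with a like starting level, taken on the Δ3βG value alone, gave a background that the limit of 10 RPKM does not touch. Of 3359 other genes within 2-fold of NCU08412 in Δ3βG, 7 (0.208%) had a log2 ratio at least as high, and their median in Δ3βGΔncw-1 was 22.3 RPKM. For NCU05955 it was 8 of 3003 genes (0.266%), with a median of 10.8 RPKM. For NCU00890 it was 43 of 1698 genes (2.53%), with a median of 4.33 RPKM.

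**Figure D2:**
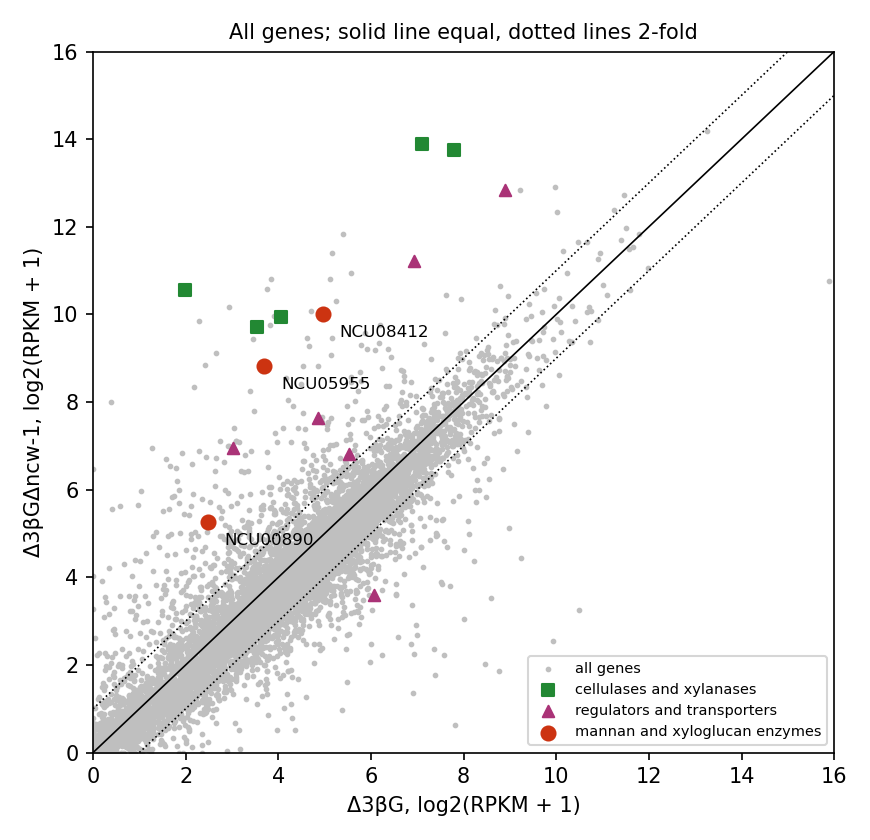
Each gene's log2(RPKM + 1) in Δ3βG (horizontal) and Δ3βGΔncw-1 (vertical), with all genes in grey, the 3 mannan and xyloglucan genes as red circles, 5 cellulase and xylanase genes as green squares and 6 regulators and transporters as purple triangles. NCU08412 and NCU05955 lie near the cellulase and xylanase genes gh5-1 and gh10-1, and NCU00890 lies lower but still above the dotted line of 2-fold.

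Other enzymes of the same or related families differed unevenly between the strains. Listed without the members were 7 genes: those with a gh2, gh5 or gh35 symbol, NCU08087 of family GH26 and gh61-3. Of these, 6 reached 10 RPKM, and 4 of the 6 were at least 2-fold higher, none was lower and 2 were neither, against the background of 8.08% higher and 11.1% lower. Of the 4, gh35-2 was below 10 RPKM in Δ3βG and could only be called higher. Another, gh5-1, is also 1 of the cellulase and xylanase genes described further on, and gh61-3 was put on the list by locus. The list was made with earlier results known and does not stand for these families. The median log2 ratio of the 6 was 2.19, beside −0.32 for all genes that reached 10 RPKM, and that of all 7 was 1.13. The gene gh61-3 (NCU02916) encodes a lytic monooxygenase that cuts xyloglucan as well as cellulose. It had 13.4 RPKM in Δ3βG, close to the xyloglucanase gene, and 1797 RPKM in Δ3βGΔncw-1, which was 134-fold higher (122 to 147).

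Family GH35 holds β-galactosidases, enzymes of the kind that remove terminal galactose. Its genes differed from each other, as gh35-2 (NCU04623) had 8.16 and 85.6 RPKM (10.5-fold, 9.60 to 11.5) and gh35-1 (NCU00642) had 19.8 and 25.9 RPKM (1.31-fold, 1.23 to 1.40). Family GH2 holds β-mannosidases and β-galactosidases among others. Apart from gh2-1, its member gh2-3 (NCU00810) had 35.5 and 78.7 RPKM (2.22-fold, 2.12 to 2.32), and gh2-2 (NCU05956) had 70.9 and 142 RPKM (2.01-fold, 1.94 to 2.07). On the log2(RPKM + 1) scale gh2-2 had 0.995, just short of the 2-fold limit, and it passed when centred on the median, with trimmed mean scaling, and with 0.1 RPKM added in place of 1 RPKM. Both started higher than the β-mannosidase gene and differed less. NCU08087 of family GH26, a family that holds mannanases, was barely detected, with 0.256 RPKM (8 reads) and 0.689 RPKM (21 reads).

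The 5 cellulase and xylanase genes used for scale were higher by more than any of the 3 members. The endoglucanase gene gh5-1 (NCU00762) had 15.7 and 979 RPKM (62.5-fold, 57.9 to 67.7). The endo-mannanase gene thus had 1.92 times the RPKM of gh5-1 in Δ3βG and 1.06 times in Δ3βGΔncw-1. The cellobiohydrolase gene cbh-1 (NCU07340) had 222 and 13724 RPKM (61.8-fold) and gh6-2 (NCU09680) 136 and 15268 RPKM (112-fold). The level of cbh-1 was 7.40 times that of the endo-mannanase gene in Δ3βG and 13.3 times in Δ3βGΔncw-1. The xylanase genes gh10-1 (NCU05924) and gh11-2 (NCU07225) began at 10.6 and 2.98 RPKM, below the endo-mannanase gene, and had 840 and 1517 RPKM in Δ3βGΔncw-1. Among these 5 genes the lowest lower limit of a fold was 57.9, above the upper limits of 37.2 and 40.6 for the endo-mannanase and xyloglucanase genes. These 5 were chosen with earlier results known and do not stand for their families. In the family of cbh-1, gh7-2 (NCU04854) had 5.75 and 39.7 RPKM, a fold of 6.91, below those of the endo-mannanase and xyloglucanase genes. The list held no other cellulase or xylanase genes.

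Regulators and transporters that act on this system were compared next, and 5 of 6 were at least 2-fold higher while 1 was at least 2-fold lower, beside 8.08% and 11.1% of all genes that reached 10 RPKM. Of the 5, clr-2 was below 10 RPKM in Δ3βG, so the limit fixed its direction in advance. The level of the activator gene clr-2 (NCU08042) was 7.14 RPKM in Δ3βG and 122.8 RPKM in Δ3βGΔncw-1. Its fold of 17.2 (15.7 to 18.9) was above that of the β-mannosidase gene and below those of the other two members. The gene of its upstream partner, clr-1 (NCU07705), had 45.3 and 111 RPKM (2.45-fold), and xlr-1 (NCU06971), the gene of a xylanase regulator, was 7.08-fold higher at 198 RPKM against 27.96 RPKM. The transporters CDT-1 and CDT-2 carry short glucose chains into the cell. Their genes were 19.8-fold higher for cdt-1 (NCU00801, 121 and 2401 RPKM) and 15.3-fold higher for cdt-2 (NCU08114, 476 and 7276 RPKM). The repressor CRE-1 acts in carbon catabolite repression. Its gene, cre-1 (NCU08807), was the exception, at 66.3 RPKM in Δ3βG and 11.04 RPKM in Δ3βGΔncw-1, or 6.01 times lower (5.28 to 6.85). Only these 2 libraries stand behind each of these pairs of values, so no relation between a regulator and the 3 enzyme genes can be tested.

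**Figure D3:**
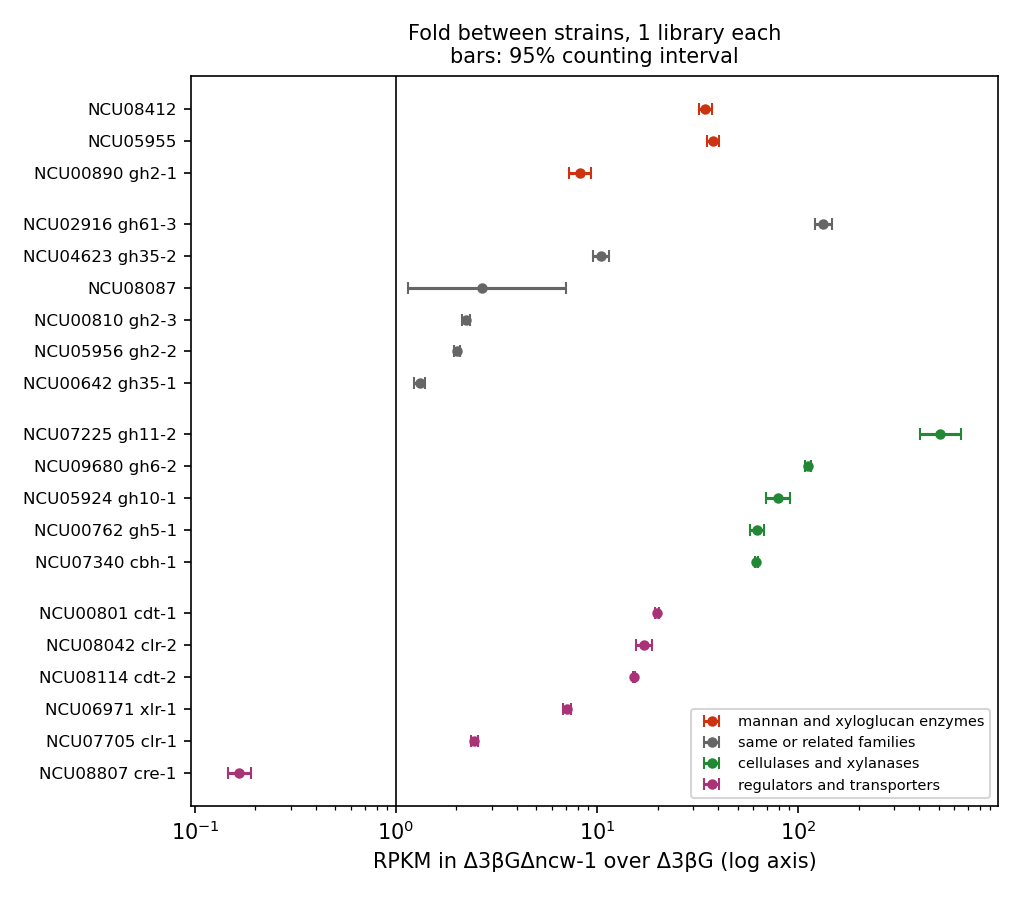
Ratio of RPKM in Δ3βGΔncw-1 over Δ3βG (log axis) for the 3 mannan and xyloglucan genes (red), genes of the same or related families (grey), cellulase and xylanase genes (green), and regulators and transporters (purple), with exact 95% counting intervals as bars. The endo-mannanase and xyloglucanase genes lie at 34.5 and 37.8, below the 5 cellulase and xylanase genes chosen for scale, and cre-1 is the gene left of 1.

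The genes with the most similar pair of values were sought by Euclidean distance over log2(RPKM + 1) in the 2 libraries, which measures level and difference at once and rests on 2 values per gene. Nearest to the endo-mannanase gene was gh61-1 (NCU02240), a lytic monooxygenase gene of the same class as gh61-3, with 25.1 and 1073 RPKM at a distance of 0.254. It was followed by NCU05864 (36.9 and 1274 RPKM, 0.416) and NCU05574 (34.9 and 708 RPKM, 0.587). Nearest to the xyloglucanase gene was NCU08398 (11.5 and 416 RPKM, 0.137), then NCU07326 (16.8 and 373 RPKM, 0.536) and NCU07898 (9.93 and 694 RPKM, 0.659). Nearest to the β-mannosidase gene were NCU05068 (4.33 and 39.0 RPKM, 0.0844), NCU01983 (4.50 and 31.9 RPKM, 0.226) and gh7-2 (NCU04854, 5.75 and 39.7 RPKM, 0.294). The last belongs to family GH7, which also holds cbh-1. The nearest genes given by locus alone have no symbol in the reference gene table, and no class is given for them.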

How the data were processed

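RNA from mycelia of 2 strains was sequenced, 1 library each. The values the authors deposited are RPKM per the file headers, with a column for each library, assigned to libraries through the sample identifiers in the column names; 0 columns of values were left unused. Per the submitters' processing notes they used DESeq 1.5.1, HTSeq 0.5.4p2 and TopHat2 2.0.8b; what each did is not stated. No source used here names the genome build, the annotation or the use of strand in counting, so reads of overlapping or antisense genes and of near-identical copies may not be separated. A reference gene table of assembly NC12 gave symbols, neighbours and spans (9729 of 9730 genes matched), and no coordinates are printed.

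Strains were compared by log2 ratios of RPKM + 1 (Δ3βGΔncw-1 against Δ3βG), a scale that understates differences of low genes; folds in the text are plain ratios of RPKM. Size rules of 2-fold and 16-fold were applied to genes that reached 10 RPKM in 1 library or both. Library totals came from the smallest step of RPKM times span, and reads from gene model lengths of at least 50% of the span that gave whole reads in both libraries, within 1e-06 reads plus 1e-09 of the read number. The 3 members had a single solution each. For eas and cre-1, with 2 solutions, the smaller was used for intervals. Fold intervals are exact Clopper-Pearson at 95%, conditional on the reads of both libraries, and level intervals are exact Poisson. Reads are not independent molecules, so both cover counting error only. The steps were tested on simulated data. Python 3.11.15, numpy 2.4.6, pandas 2.3.3 and scipy 1.17.1 were used.

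The members and lists were chosen with earlier results of these data known. The lists were the members' own families, other mannan or xyloglucan families, regulators and transporters, cellulases and xylanases, and markers of hyphae and conidia. The members' families were taken by gh symbol in the reference gene table, so family genes without one were missed, NCU08412 and NCU05955 among them. Other families were taken by gh symbol too, and NCU08087 and gh61-3 were added by locus. Genes named were the members, list genes, deleted genes, neighbours in the table and the 3 nearest genes to each member. The mating-type genes and the background at a like starting level were added after the values had been seen. Sequences and promoter motifs were not analysed here. Alternatives were a pseudocount of 0.1 or 5 RPKM, a minimum of 5 or 50 RPKM or none, median centring, equal sums, and an unweighted trimmed mean of M-values (30% of ratios and 5% of levels trimmed from each end).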

Additional observations from a re-analysis of the deposited data

How the results depend on the processing

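Under every pseudocount and scaling tried, the 3 members stayed past 2-fold, higher in Δ3βGΔncw-1, and NCU08412 and NCU05955 stayed past 16-fold. The log2 ratios of NCU08412, NCU00890 and NCU05955 were 4.89, 2.15 and 4.76 with 5 RPKM added, 5.38, 3.11 and 5.45 under median centring, and 5.39, 3.11 and 5.46 under trimmed mean scaling. With 0.1 RPKM added they were 3.01 for NCU00890 and 5.23 for NCU05955. A larger pseudocount lowers the ratio of a low gene by construction, which was largest for NCU00890. Genes at least 2-fold lower numbered 425 with 5 RPKM added, 343 under median centring, 353 under trimmed mean scaling and 240 at a minimum of 50 RPKM, and genes at least 2-fold higher numbered 268 at that minimum, where fewer genes (2023) were classed. Genes at least 16-fold higher numbered 34 with 5 RPKM added. Median log2 ratios of 4 lists kept their direction and stayed within 1.5-fold of their values. They were 1.96 for the 4 genes with a symbol of the members' families, gh2-1 among them. The other mannan or xyloglucan families had 1.83 (4 genes, NCU08087 among them), the regulators and transporters 3.35 and the cellulases and xylanases 6.18. Among single genes, hex-1 turned from −0.13 to 0.20 with trimmed mean scaling and to 0.19 when centred on the median. With equal sums, gh3-4 turned from 0.0090 to −0.0055. These settings rescale a whole library or shift all ratios alike, so a small ratio can change sign by construction. The read numbers of the members had no other solution, so their intervals did not change. No paired analysis was possible because there was 1 library per strain, and for the same reason no library could be left out. Depth limits NCU08087, with 8 and 21 reads, and no member.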

Other observations

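The 3 genes each lie between neighbours that differed in opposite directions. Next to the endo-mannanase gene, NCU08411 had 75.0 RPKM in Δ3βG and 441 RPKM in Δ3βGΔncw-1 (5.88-fold higher), while NCU08413 on the other side had 9.58 and 4.70 RPKM (2.04-fold lower). Next to the β-mannosidase gene, NCU00891, whose span overlaps it, had 9.19 and 37.7 RPKM (4.10-fold higher), and NCU00889 had 22.9 and 12.6 RPKM (1.82-fold lower). Next to the xyloglucanase gene, gh2-2 (NCU05956) had 70.9 and 142 RPKM (2.01-fold higher), and NCU05954 had 10.1 and 5.53 RPKM (1.82-fold lower). On the log2 scale the lower neighbours lay between −0.89 and −0.76, beside −0.32 for the median gene that reached 10 RPKM. None of these lower neighbours passed the 2-fold limit on that scale, and NCU08413 was below 10 RPKM in both libraries. Neighbours were looked up for these 3 genes only, and no test was made. How often the neighbours of other genes differ in opposite directions was not counted.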
